A study of Homo sapiens with 36 samples.

Results

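The siRNAs siHNRNPH1 A3 and siHNRNPH1 A2, both directed against HNRNPH1, were set against each other. The comparison holds 6 of the 36 arrays of the series, 3 for each siRNA, chosen by their labels alone. All arrays carry RNA of TC32, a human Ewing sarcoma cell line. In the groups used here it was taken 48 h after transfection with siRNA at 20 nM. The groups used are siHNRNPH1 A3 (3 arrays), siHNRNPH1 A2 (3 arrays), siHNRNPH1 Q3, a further siRNA against the same mRNA (3 arrays), and the non-targeting control siNeg, replicates 4 to 6 (3 arrays, called siNeg set 2). These 12 arrays share one distribution in the authors' normalized values, apart from the other 24, and are called run 2. The question of the comparison is which transcripts differ between A3 and A2 when both have lowered HNRNPH1.

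HNRNPH1 is a nuclear RNA-binding protein that recognises G-rich stretches in pre-mRNA and regulates splicing and polyadenylation. HNRNPH2, HNRNPF, HNRNPH3 and GRSF1 are its closest relatives. Ewing sarcoma cells carry a fusion of EWSR1 with an ETS gene, in TC32 FLI1, and the fusion protein EWS-FLI1 acts as a transcription factor. In some Ewing sarcoma lines, TC32 among them, HNRNPH1 is known for its part in processing the fusion pre-mRNA. An siRNA guides the Argonaute protein AGO2 to a matching mRNA, and can also lower other transcripts that match its seed, so siRNAs against one target share the target and differ in the rest. Small Cajal body RNAs (scaRNAs) guide the chemical modification of spliceosomal RNAs in a nuclear body, and most of them are cut from introns of other genes.

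The arrays of run 2 detected between 14426 and 15901 probes each. Array values correlated at 0.990 to 0.991 within A3, at 0.990 to 0.991 within A2, and at 0.980 to 0.984 between A3 and A2 arrays. A level below is a normalized log2 intensity of the probe that stands for a gene, so levels are compared between arrays and not between genes. A gene was called where limma's Benjamini-Hochberg adjusted p over all 11437 genes was below 0.05. The labels do not say whether the 3 arrays of a group came from separate transfections, so the spread between them may be technical. The p-values rest on a spread within groups that was pooled for each gene over all 36 arrays in 12 groups. A probe counts as detected on an array where its deposited detection p is below 0.01.

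HNRNPH1 itself was lowered by A3 and by A2, as read by the probe that stands for it. Its level was 8.96, 8.74 and 9.04 on the A3 arrays, 8.93, 8.69 and 8.94 on the A2 arrays, 8.65, 8.87 and 8.82 on the Q3 arrays, and 10.29, 10.10 and 10.21 on the siNeg set 2 arrays. The A3 and A2 arrays overlapped, and all siHNRNPH1 arrays lay below all siNeg set 2 arrays. A3 left 40.999% of the siNeg set 2 level (95% interval 34.9 to 48.2%), A2 left 39.3% (33.5 to 46.2%) and Q3 left 37.4% (31.9 to 44.0%). The difference of A3 minus A2 was 0.06 on the log2 scale (95% interval -0.17 to 0.29, limma adjusted p = 0.796), so a difference in remaining HNRNPH1 mRNA within that interval cannot be told from none. Another kept HNRNPH1 probe was detected on all 12 run 2 arrays, and its level in each group is not given here. Under 17 alternative ways of processing, among them the mean of the kept probes, A3 minus A2 lay between -0.023 and 0.146. It was called under none of them. Protein was not measured.

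Among the relatives of HNRNPH1, only HNRNPH2 was called between A3 and A2. HNRNPH2 stood at 8.10, 8.06 and 8.28 with A3, at 9.06, 9.001 and 9.03 with A2, at 9.62, 9.21 and 9.19 with Q3, and at 8.78, 8.73 and 8.74 with siNeg set 2. The A3 arrays were the lowest of the 12, and none overlapped A2. The log2 difference of A3 minus A2 was -0.88 (SE 0.115, limma adjusted p = 4.22e-08). Against siNeg set 2 it was -0.60 with A3, 0.28 with A2 and 0.59 with Q3. A second HNRNPH2 probe was detected on 2 of the 12 run 2 arrays and had no usable level there. HNRNPH3 (0.14, adjusted p = 0.545), HNRNPF (-0.02, adjusted p = 0.955) and GRSF1 (0.08, adjusted p = 0.661) did not pass the test in limma. HNRNPH1 and HNRNPH2 are close in sequence, and whether the HNRNPH2 probe also reads HNRNPH1 was not tested.

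**Figure D1:**
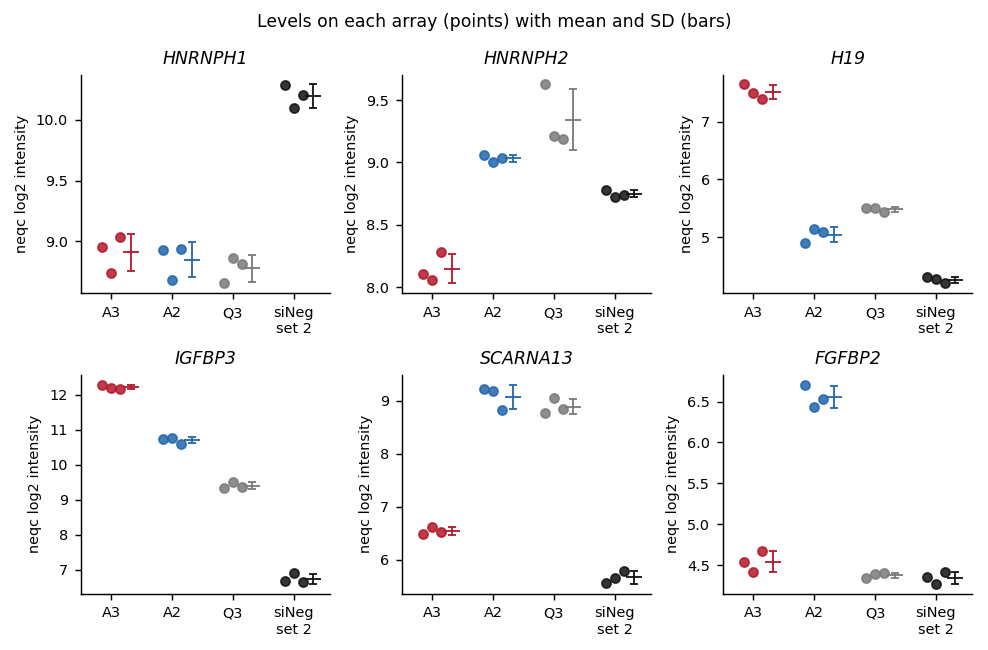
Normalized log2 intensity of 6 genes on each of the 12 run 2 arrays, by group from siHNRNPH1 A3 on the left to siNeg set 2 on the right, with points for arrays and bars for the mean ± SD (n = 3 each). HNRNPH1 overlaps between A3 and A2, below siNeg set 2, while H19 and IGFBP3 are highest with A3, and HNRNPH2, SCARNA13 and FGFBP2 are lower with A3 than with A2.

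Between A3 and A2, limma called 1846 of 11437 genes (16.1% of genes tested), 1026 higher with A3 (8.97%) and 820 lower (7.17%). Of these, 123 differed by at least 2-fold (1.08% of genes tested), 58 higher with A3 and 65 lower. The 3 A3 and 3 A2 arrays did not overlap for 1699 of the 1846 called genes, against 3309 of all 11437 genes tested. A call makes such a separation likely, so the count is no separate support. The median log2 difference over all genes was -0.0038. The number of genes that passed 2-fold was 22 in the authors' deposited normalized values, whose method is not known here, and 26 without background correction. For 23 called genes the probe was undetected on all A3 arrays and detected on all A2 arrays, and for 51 the reverse held. A fold change against such a group is given below as a lower bound. It takes the mean of the brighter group over, for each dim array, the higher of the probe's own signal and the lowest signal of any detected probe.

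**Figure D2:**
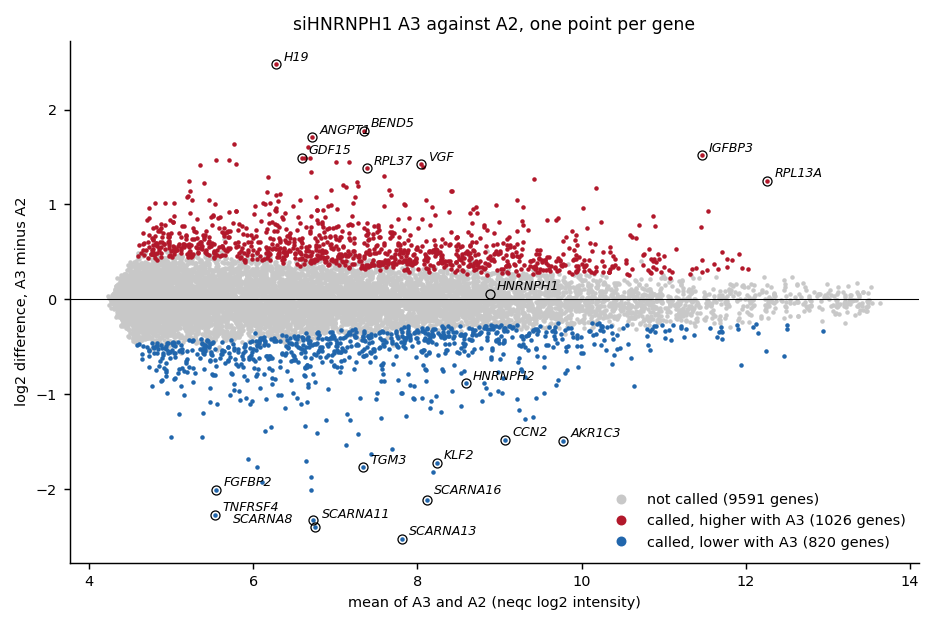
Each point is 1 of 11437 genes, with the mean level over the A3 and A2 arrays on the horizontal axis (normalized log2 intensity) and the log2 difference of A3 minus A2 on the vertical axis. Red points are the 1026 genes called higher with A3, blue points the 820 called lower and grey points the 9591 not called, with H19 at the top and SCARNA13 at the bottom.

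The largest rise with A3 over A2 was that of H19, the maternally expressed imprinted long noncoding RNA next to IGF2. H19 read 7.65, 7.50 and 7.40 on the A3 arrays, 4.90, 5.14 and 5.09 on the A2 arrays, 5.51, 5.50 and 5.43 on the Q3 arrays, and 4.30, 4.26 and 4.19 on the siNeg set 2 arrays. Its level was high on every A3 array, low but mostly detected with A2 and Q3, and undetected on every siNeg set 2 array. The log2 difference of A3 minus A2 was 2.48 (SE 0.130, limma adjusted p = 2.47e-21), a 5.56-fold higher signal. Compared with siNeg set 2, H19 was at least 6.14-fold higher with A3, at least 1.10-fold higher with A2 and at least 1.496-fold higher with Q3. In the authors' normalized values the difference of A3 minus A2 was 1.13 and the gene was still called. A bulk array cannot tell a change in RNA per cell from a change in the number of cells that make the RNA. IGF2, the imprinted neighbour of H19, had 3 probes that were detected on 0 of 36 arrays.

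Several of the genes highest with A3 encode secreted proteins or receptors. IGFBP3, which binds insulin-like growth factors outside the cell, measured 12.29, 12.21 and 12.17 with A3, 10.74, 10.77 and 10.60 with A2, 9.34, 9.51 and 9.37 with Q3, and 6.68, 6.90 and 6.63 with siNeg set 2. The 4 groups did not overlap, and A3 was the highest. The difference of A3 minus A2 was 1.52 (SE 0.140, limma adjusted p = 3.47e-12), and a second IGFBP3 probe gave 1.71. ANGPT1, a ligand of the endothelial receptor TIE2, was at 7.38, 7.56 and 7.77 with A3, at 5.57, 6.04 and 5.98 with A2, at 7.51, 7.09 and 7.27 with Q3, and at 4.97, 4.59 and 4.71 with siNeg set 2. Here Q3 lay with A3 (A3 minus Q3 0.28, adjusted p = 0.19), while A3 minus A2 was 1.71 (SE 0.163, limma adjusted p = 9.31e-12). VGF, the precursor of neuroendocrine peptides, had levels of 8.70, 8.86 and 8.69 with A3, 7.49, 7.37 and 7.12 with A2, 4.26, 4.50 and 4.40 with Q3, and 4.82, 5.26 and 4.92 with siNeg set 2. VGF was undetected on the Q3 arrays, where A3 was at least 13.5-fold and A2 at least 5.04-fold higher. A3 exceeded A2 by 1.42 (limma adjusted p = 7.44e-09).

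TIMP3, an inhibitor of matrix metalloproteinases, was 1.44 higher with A3 than with A2, with means of 7.73 ± 0.13 and 6.28 ± 0.20 (SD, n = 3 each, limma adjusted p = 1.46e-10). It was undetected with siNeg set 2, and A3 was at least 7.09-fold and A2 at least 2.61-fold higher than that group. HAS3, which makes hyaluronan, was 1.60 higher with A3 than with A2 (limma adjusted p = 2.24e-09), at 7.43, 7.26 and 7.71 with A3 and 5.81, 5.97 and 5.81 with A2. CNTFR, the receptor subunit for ciliary neurotrophic factor, was detected on 3 A3 arrays (6.64, 6.47 and 6.64) and on 1 A2 array (4.64, 5.38 and 4.81), a difference in measured signal of 1.64. FOLR1, a folate receptor, was likewise detected on 3 A3 arrays and 1 A2 array, with a difference in measured signal of 1.47 (limma adjusted p = 3.45e-10). A second FOLR1 probe gave 1.32.

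For 5 of the 15 largest rises A2 was not called against siNeg set 2 while A3 was called above it. BEND5 was at 8.29, 8.32 and 8.09 with A3, 6.62, 6.47 and 6.29 with A2, 6.47, 6.81 and 6.76 with Q3, and 6.62, 6.45 and 6.59 with siNeg set 2. Only the A3 arrays stood apart, and A3 minus A2 was 1.78 (SE 0.160, limma adjusted p = 1.55e-12). Against siNeg set 2, BEND5 differed by 1.68 with A3, -0.09 with A2 and 0.13 with Q3. CEBPA, a transcription factor of myeloid and fat cells, had 1.33 with A3, -0.16 with A2 and -0.46 with Q3. SLC16A9, a solute carrier of the monocarboxylate transporter family, had 1.72, 0.27 and -0.26 in the same order. The others were COXFA4L2 and PNCK, with A3 minus A2 of 1.47 and 1.43.

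GDF15, a secreted stress-induced protein of the TGF-beta family, and IDNK, which encodes a gluconokinase, differed in another way. GDF15 was at 7.29, 7.35 and 7.36 with A3, 5.87, 5.98 and 5.67 with A2, 4.77, 5.22 and 4.87 with Q3, and 8.03, 8.17 and 8.19 with siNeg set 2. It was thus lower than siNeg set 2 with each siRNA, and least so with A3 (-0.80, against -2.29 with A2 and -3.18 with Q3). The difference of A3 minus A2 was 1.49 (SE 0.195, limma adjusted p = 4.65e-08). IDNK lay 0.59 above siNeg set 2 with A3, 0.90 below it with A2 and 0.39 below it with Q3. The 15th and 16th largest rises, on either side of the limit for naming, were VGF at 1.42 and TMEM198 at 1.41.

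The largest falls with A3 against A2 were those of small RNAs, with several protein-coding genes among them. TNFRSF4, the T cell costimulatory receptor OX40, was undetected on the A3 arrays (4.47, 4.38 and 4.36) and detected on the A2 arrays (6.92, 6.77 and 6.32), while Q3 gave 5.12, 4.45 and 4.41, and siNeg set 2 gave 4.39, 4.21 and 4.52. It was at least 3.37-fold lower with A3 than with A2 (limma adjusted p = 1.47e-16). Without a filter on dim probes another probe, brighter over all arrays, stands for TNFRSF4, and its difference was 0.06 (adjusted p = 0.894). FGFBP2, a secreted protein known from cytotoxic lymphocytes, was at 4.54, 4.42 and 4.68 with A3, 6.70, 6.43 and 6.52 with A2, 4.34, 4.39 and 4.40 with Q3, and 4.35, 4.27 and 4.42 with siNeg set 2. Of all 36 arrays, its probe was detected on 3, the A2 arrays. FGFBP2 was at least 3.11-fold lower with A3 than with A2 (limma adjusted p = 2.95e-17). Probes were kept if detected on at least 3 of 36 arrays, so FGFBP2 was tested only because of the A2 arrays. Its p-value is therefore no independent support for the difference. Among run 2 arrays the TNFRSF4 probe was detected on 3 with A2 and 1 with Q3. Its detection on the other 24 arrays is not given here, so the TNFRSF4 p-value is not taken as independent support either. Of the 10 lymphocyte markers looked up beside FGFBP2, 1 was measured, CD247, and its log2 difference was 0.0036.

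TGM3, a transglutaminase, and KLF2, a zinc finger transcription factor, were also high with A2 alone. TGM3 was at 6.59, 6.22 and 6.55 with A3, 8.35, 8.38 and 7.95 with A2, 6.41, 6.10 and 6.197 with Q3, and 6.14, 6.70 and 6.48 with siNeg set 2. KLF2 was at 7.63, 7.19 and 7.30 with A3, 9.17, 9.15 and 8.96 with A2, 8.05, 7.68 and 7.95 with Q3, and 7.97, 7.66 and 7.63 with siNeg set 2. Neither gene's A2 arrays overlapped any other array of run 2. The log2 difference was -1.77 for TGM3 (limma adjusted p = 3.47e-12) and -1.72 for KLF2 (limma adjusted p = 7.64e-16). LFNG, a glycosyltransferase that modifies Notch receptors, was raised by all 3 siRNAs over siNeg set 2, where it was undetected. It was at least 1.85-fold higher with A3, at least 6.04-fold higher with A2 and at least 1.58-fold higher with Q3, and A3 minus A2 was -1.71.

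CEACAM1, a cell adhesion molecule, was the named fall in which A3 departed from the control and A2 did not. Its level was 5.47, 5.08 and 4.92 with A3, 6.86, 7.12 and 6.79 with A2, 6.33, 6.53 and 6.19 with Q3, and 6.75, 6.68 and 6.91 with siNeg set 2. The A3 arrays were the lowest of the 12. The difference from A2 was -1.77 (SE 0.148, limma adjusted p = 1.61e-13), and A3 minus siNeg set 2 was -1.62, against 0.14 for A2. Both other CEACAM1 probes were also called lower with A3, at -1.33 and -0.69. The 15th and 16th largest falls were TERC at -1.69 and CEMIP at -1.63.

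**Figure D3:**
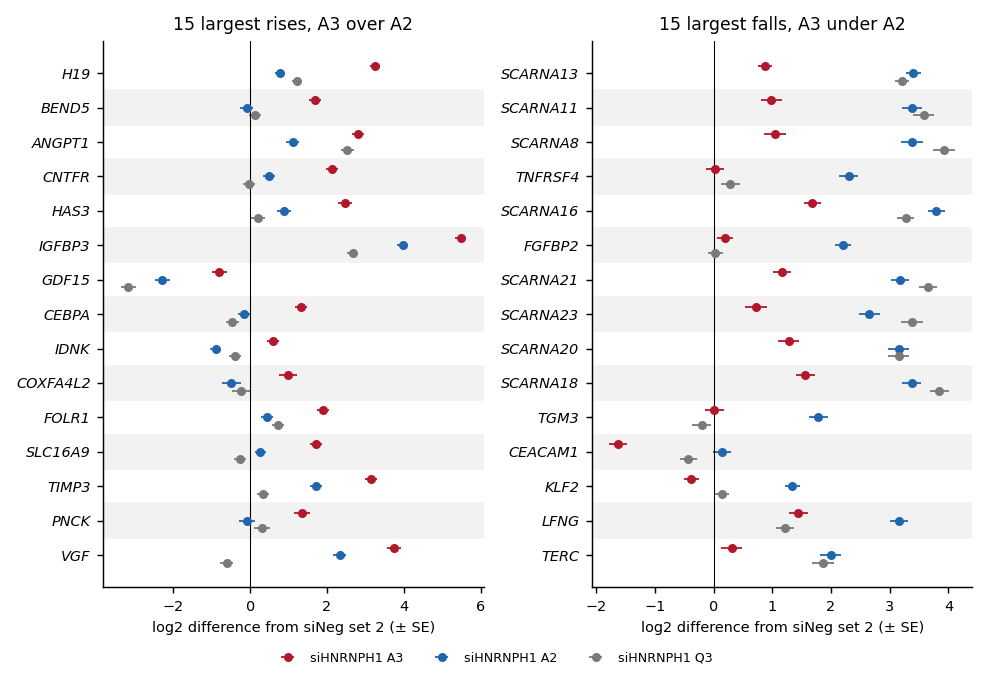
Log2 difference from siNeg set 2 (horizontal axis, ± SE) of the 15 largest rises (left) and 15 largest falls (right) of A3 against A2, with siHNRNPH1 A3 in red, A2 in blue and Q3 in grey. H19, CNTFR, FOLR1, TIMP3, LFNG, TNFRSF4, FGFBP2 and 4 Cajal body RNAs were undetected with siNeg set 2, so their plotted differences are those of the measured signal. These understate the change where the siRNA group was detected. No change can be read where it was also undetected (FGFBP2 with A3 and Q3, TNFRSF4 with A3, CNTFR with Q3). For the Cajal body RNAs and TERC, A2 and Q3 lie together above A3.

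Small Cajal body RNAs made up 8 of the 15 largest falls. The platform carried 24 such genes, and 16 were tested. Of these 11 were called lower with A3 than with A2, 1 was called higher and 4 did not pass limma's test, against 7.17% of all genes called lower. The median log2 difference over the 16 genes was -1.51. It was -0.603 in the authors' values, -0.699 without background correction and -0.505 with no filter on dim probes. SCARNA13 was at 6.49, 6.63 and 6.53 with A3, 9.21, 9.19 and 8.81 with A2, 8.77, 9.04 and 8.84 with Q3, and 5.56, 5.66 and 5.80 with siNeg set 2. A2 and Q3 were high together, A3 was between them and siNeg set 2, and A3 overlapped no other group. The difference of A3 minus A2 was -2.52 (SE 0.124, limma adjusted p = 2.82e-22), a 5.74-fold lower signal, and in the authors' normalized values it was -1.72. Against siNeg set 2, SCARNA13 was 0.88 higher with A3, 3.40 higher with A2 and 3.21 higher with Q3.

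SCARNA11, SCARNA8 and SCARNA16 followed the same order. SCARNA11 was at 5.57, 5.72 and 5.36 with A3, 7.98, 8.05 and 7.81 with A2, 8.20, 8.41 and 7.82 with Q3, and 4.45, 4.92 and 4.32 with siNeg set 2 (A3 minus A2 -2.39, limma adjusted p = 7.82e-16). SCARNA8 was undetected with siNeg set 2, and was at least 1.58-fold higher with A3, at least 7.92-fold higher with A2 and at least 11.6-fold higher with Q3. SCARNA16 was at 7.08, 7.36 and 6.74 with A3, 9.18, 9.32 and 9.02 with A2, 8.68, 8.88 and 8.38 with Q3, and 5.45, 5.25 and 5.43 with siNeg set 2, a difference of -2.11 (limma adjusted p = 1.75e-16). For SCARNA21, SCARNA23, SCARNA20 and SCARNA18 the difference of A3 minus A2 ran from -2.005 to -1.82. SCARNA14, SCARNA12 and SCARNA22 were called lower by smaller amounts, -1.20, -1.01 and -0.80.

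TERC, the RNA template of telomerase, belongs to the same structural class as most of these RNAs. It was at 5.44, 4.72 and 5.11 with A3, 6.73, 6.95 and 6.63 with A2, 6.71, 6.71 and 6.50 with Q3, and 4.45, 5.03 and 4.85 with siNeg set 2. A3 overlapped siNeg set 2, and A2 overlapped Q3. Its difference from A2 was -1.69 (SE 0.181, limma adjusted p = 2.64e-10). Of the 17 RNAs, TERC included, 11 were detected on all 3 A3 arrays, 14 on all 3 A2 arrays, 14 on all 3 Q3 arrays and 6 on all 3 siNeg set 2 arrays.

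The RNAs can be grouped by structural class. H/ACA RNAs guide pseudouridylation, and C/D RNAs guide ribose methylation. By their known class, 13 of the 17 RNAs are H/ACA, of which 11 were called lower and 0 higher, with differences from -2.52 to -0.44. Of 2 with both kinds of domain 1 was called lower, SCARNA12. Of 2 C/D RNAs 0 were called lower and 1 was called higher, SCARNA9. It was at 6.60, 6.51 and 6.85 with A3, 5.74, 5.69 and 5.49 with A2, 6.40, 6.65 and 6.82 with Q3, and 5.28, 5.06 and 5.09 with siNeg set 2. For SCARNA9 it was A3 and Q3 that were high together, and A3 minus A2 was 1.01 (SE 0.150, limma adjusted p = 9.39e-07). The other C/D RNA, SCARNA7, was undetected on every A3 and A2 array. The difference between the classes was not itself tested.

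**Figure D4:**
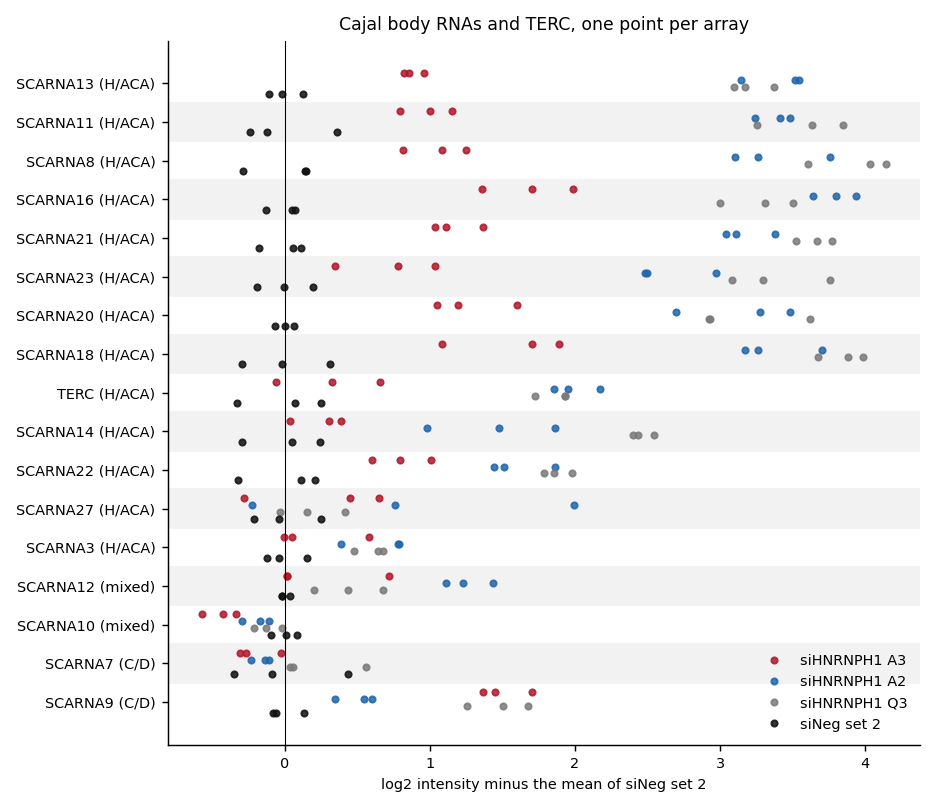
Level of 16 Cajal body RNAs and TERC on each A3, A2, Q3 and siNeg set 2 array minus the mean of siNeg set 2 (log2 scale), with 1 point per array. For SCARNA13, SCARNA11 and SCARNA8 the A3 points lie between siNeg set 2 and the A2 and Q3 points, and for SCARNA9 the A3 points lie above A2 and among Q3.

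H/ACA small nucleolar RNAs, which act on ribosomal RNA, were also called lower more often than higher. Among 68 tested, 22 were called lower with A3 and 2 higher, against 7.17% lower and 8.97% higher over all genes. The median was -0.21, and it was -0.0783 in the authors' values and -0.0930 without background correction. SNORA79 was at 6.60, 6.84 and 6.17 with A3, 7.53, 7.93 and 7.77 with A2, 7.92, 8.51 and 7.73 with Q3, and 4.64, 4.55 and 4.91 with siNeg set 2 (A3 minus A2 -1.21, limma adjusted p = 1.16e-05). SNORA67 had a difference of -1.17, SNORA62 of -1.08 and SNORA57 of -1.04. The 2 called higher, SNORA29 and SNORA5C, were each detected on 2 A3 arrays and on 0 A2 arrays. Among those called lower, SNORA23, SNORA38B, SNORA11B, SNORA22, SNORA5A, SNORA27, SNORA7A and SNORA4 were detected on 0 A3 arrays. SNORA27, SNORA7A and SNORA4 were also detected on only 1 A2 array each. With no filter on dim probes more of these RNAs were tested, and 20 were called lower and 2 higher.

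Of 65 C/D small nucleolar RNAs tested, out of 176 on the platform, 1 was called lower with A3 and 0 higher, with a median of -0.069. At an unadjusted limma p below 0.05, 5 were lower and 2 higher. The RNA called was SNORD96A, at -0.41. The count was 0 without A2 replicate 2, and 2 without A3 replicate 2 or without A2 replicate 3. RMRP, RNU4ATAC and RNU6-1 were the 3 called of 21 spliceosomal and other small RNAs, all lower with A3 (14.3%, against 16.1% of all genes), and the RNU4ATAC call was lost under 12 of 17 alternatives. That count was 0 without A3 replicate 3 or without A2 replicate 1, and 1 without A3 replicate 1, A3 replicate 2 or A2 replicate 2.

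Genes that span the small RNAs were looked up beside them. The small RNAs looked up were Cajal body RNAs, TERC, H/ACA small nucleolar RNAs and RMRP. Of the 35 called lower, 33 had a spanning gene in the annotation. It was tested for 28, with EIF4A2 counted for both SNORA63 and SNORA4. 1 of these was called lower (SEC14L1, -0.43), 1 was called higher (NOL11, 0.37) and 26 were not called, against 16.1% of all genes called. Of 16 noncoding and other host genes of small nucleolar RNAs, 7 were called higher and 0 lower, with a median of 0.25, against 8.97% of all genes called higher. At an unadjusted limma p below 0.05, 9 were higher and 0 lower. SNHG8 was at 8.67, 8.81 and 8.52 with A3, 7.47, 7.91 and 7.70 with A2, 7.09, 7.28 and 7.45 with Q3, and 8.19, 7.79 and 8.22 with siNeg set 2. The difference was 0.98 for SNHG8 (limma adjusted p = 3.23e-09) and 0.83 for EPB41L4A-AS1 (limma adjusted p = 1.29e-08). SNHG1 and ZFAS1 differed by 0.43 and 0.33, and the probes of SNHG7 disagreed (0.46 for the one used, 0.63 and -0.13 for the others).

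Of 15 Cajal body and telomerase protein genes, 1 was called higher with A3 and 2 lower (20%, against 16.1% of all genes), with log2 differences between -0.34 and 0.29 over the list. The count was 1 without A3 replicate 1, A3 replicate 2, A2 replicate 1 or A2 replicate 2. Of 17 genes for H/ACA core proteins and for enzymes that trim or extend RNA tails, a list written after values had been seen, limma called 0, with 1 higher and 1 lower at an unadjusted p below 0.05. As background, mature scaRNAs and small nucleolar RNAs lack a long poly(A) tail, while the labelling kit primes from poly(A). Which form of each RNA the probes read was not tested.

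Where A3 and A2 differed by 2-fold or more, the levels with Q3 and siNeg set 2 were set against both. Among the 58 genes higher with A3, the Q3 mean was nearer to A2 for 40 and nearer to A3 for 18, and the siNeg set 2 mean was nearer to A2 for 44 and nearer to A3 for 14. Among the 65 lower with A3, Q3 was nearer to A2 for 35 and nearer to A3 for 30, and siNeg set 2 was nearer to A2 for 2 and nearer to A3 for 63. These counts describe genes chosen for their A3 and A2 levels. In total limma called 4524 genes between A3 and siNeg set 2 (39.6%), 4676 between A2 and siNeg set 2 (40.9%) and 4807 between Q3 and siNeg set 2 (42%). The 3 comparisons share their control arrays, so their overlap is not given.

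Some of the genes that all 3 siRNAs moved most against siNeg set 2 were not called between A3 and A2. MGP, an inhibitor of calcification, was at 12.72, 12.67 and 12.71 with A3, 12.79, 12.83 and 12.75 with A2, 10.85, 10.57 and 10.58 with Q3, and 7.69, 7.80 and 7.41 with siNeg set 2. A3 minus A2 was -0.09 (limma adjusted p = 0.623). TRIB3, a pseudokinase of the amino acid and endoplasmic reticulum stress response, was at 7.93, 7.94 and 7.91 with A3, 8.16, 7.96 and 7.93 with A2, 8.11, 8.28 and 8.29 with Q3, and 11.54, 11.94 and 11.57 with siNeg set 2, with a difference of -0.09 between A3 and A2 (limma adjusted p = 0.685). PCK2 and CTH, metabolic enzymes of the same response, differed by 0.09 and -0.06 and did not pass. ASNS, which makes asparagine, differed by -0.21 (limma adjusted p = 0.157). ULBP1 was undetected on all siHNRNPH1 arrays, at least 6.56-fold lower than siNeg set 2 with A3 and at least 6.24-fold lower with A2.

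Others of these shared genes were called between A3 and A2, or lay near the threshold. CRABP2, which carries retinoic acid in the cell, was at 9.37, 9.14 and 9.21 with A3 and 10.15, 10.44 and 9.83 with A2, against 8.12, 7.75 and 7.64 with Q3, and 5.36, 4.77 and 5.36 with siNeg set 2. The CRABP2 difference between A3 and A2 was -0.90 (limma adjusted p = 4.31e-05). TGM2, another transglutaminase, was 0.80 higher with A3 than with A2 (limma adjusted p = 0.000149), though its other kept probes were not called. ATF5, a transcription factor of the stress response, was 0.52 higher with A3 (limma adjusted p = 0.00705). Without A3 replicate 2 the ATF5 difference was 0.44 (adjusted p = 0.0598). COL1A1 differed by -0.42 (limma adjusted p = 0.0428), a call lost under 6 of 17 alternatives, and TRIM55 by 0.37 (limma adjusted p = 0.0576).

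Matrix genes were called in both directions between A3 and A2. Of 49 extracellular matrix and mesenchymal genes measured, 9 were called higher with A3 and 19 lower, with a median of -0.27, against 8.97% and 7.17% of all genes. CCN2, a matricellular protein, was at 8.47, 8.29 and 8.23 with A3, 9.89, 9.80 and 9.73 with A2, 10.39, 10.15 and 10.35 with Q3, and 7.99, 8.31 and 8.06 with siNeg set 2. It rose with A2 and Q3 (1.69 and 2.18 over siNeg set 2) and read 0.21 with A3, and A3 minus A2 was -1.48 (SE 0.101, limma adjusted p = 1.2e-16). COL4A1, a chain of basement membrane collagen, was at 8.72, 8.66 and 8.66 with A3, 10.05, 10.06 and 9.70 with A2, 8.02, 8.0004 and 7.93 with Q3, and 7.35, 7.32 and 7.16 with siNeg set 2. A3 minus A2 was -1.26 for COL4A1 and -1.01 for COL4A2, its partner chain.

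Within the basement membrane and its receptors the directions split. Of 10 collagen IV, laminin and integrin genes, a list written after values had been seen, 3 were called higher, 4 lower and 3 not. This was 70% of the list, against 16.1% of all genes, but a list chosen in this way gives no support. ITGAV, an integrin subunit, was 1.15 lower with A3 on the log2 scale, and ITGA5 was 0.87 lower. The laminin chains LAMC1, LAMB1 and LAMA4 were called higher with A3, by 0.85, 0.65 and 0.53, while a second probe was not called for LAMB1 (0.28) or LAMA4 (0.43). LAMC1 was at 10.09, 10.16 and 10.16 with A3, 9.26, 9.36 and 9.22 with A2, 9.90, 9.70 and 9.98 with Q3, and 9.10, 8.85 and 8.93 with siNeg set 2. Among cytoskeletal genes TAGLN had -0.91 and TPM1 had -1.05 with 1 of its 3 other probes also called, and SPARC, a collagen-binding protein, had -0.91. THBS1, which encodes thrombospondin, was 0.96 higher with A3. COL3A1 and COL5A1, fibrillar collagens, were each 0.48 higher.

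Insulin-like growth factor genes gave 2 higher and 3 lower of 16 measured (31.2%, against 16.1% of all genes), and the count was 3 without A3 replicate 1. IGFBP4 was 0.82 higher with A3 and IGF2BP3, which binds IGF2 mRNA, was lower by 0.74. Fibroblast growth factor genes gave 3 higher and 5 lower of 18 (44.4%). FGF2 was undetected with A3 and detected with A2, Q3 and siNeg set 2, and A3 was at least 1.47-fold lower than A2. The other FGF2 probe was not called (0.06), and neither was the mean of both. SPRY4, a feedback inhibitor of the pathway, was at 6.22, 6.25 and 6.34 with A3, 7.10, 7.18 and 6.66 with A2, 5.90, 6.15 and 5.91 with Q3, and 5.18, 5.35 and 5.19 with siNeg set 2 (A3 minus A2 -0.71, limma adjusted p = 0.00168). ETV5, a transcription factor induced by the pathway, was 0.79 higher with A3 (limma adjusted p = 9.7e-05), and its other kept probe gave 0.28 (adjusted p = 0.398). SPRED1 and DUSP6, further inhibitors, were 0.55 and 0.46 higher.

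Of 26 imprinted genes measured, 6 were called higher with A3 and 0 lower, against 8.97% higher and 7.17% lower over all genes, and the counts at an unadjusted limma p below 0.05 were also 6 and 0. COPG2, a coat protein gene, was at 8.19, 8.13 and 8.35 with A3, 7.33, 6.87 and 7.01 with A2, 7.72, 8.12 and 8.13 with Q3, and 7.85, 7.48 and 7.57 with siNeg set 2. It was 1.15 higher with A3 than with A2 (limma adjusted p = 2.95e-10). CDKN1C, a cell cycle inhibitor, was 0.93 higher, BLCAP 0.71 and NDN 0.58, the last not called without A3 replicate 1. The other calls were H19, described above, and DLK1 at 0.45, which was lost under 7 of 17 alternatives. The median over the list was 0.042, with a range of -0.0198 to 0.113 when 1 array was left out.

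The genes whose levels followed H19 most closely over the 12 run 2 arrays were CHPF (Pearson r = 0.968), ETV5 (0.967), MAGED2 (0.959), SAT2 (0.956) and FOLR1 (0.950). These arrays form 4 groups of 3, so the coefficients mainly describe group means. CHPF averaged 7.40 with A3, 6.42 with A2, 6.38 with Q3 and 6.08 with siNeg set 2. MAGED2 averaged 7.49 with A3, 6.54 with A2, 6.81 with Q3 and 6.13 with siNeg set 2. A3 minus A2 was 0.98 for CHPF and 0.95 for MAGED2, and limma called both.

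Of 37 measured genes of the integrated stress and unfolded protein responses, 7 were called higher with A3 than with A2 and 3 lower (27%, against 16.1% of all genes), and 5 were called without A3 replicate 2. Beside GDF15, ATF3 was 0.76 higher and DDIT3, which encodes CHOP, was 0.53 higher. HSPA5, the endoplasmic reticulum chaperone BiP, was at 7.06, 7.44 and 7.25 with A3, 8.32, 8.75 and 8.38 with A2, 7.81, 8.003 and 7.89 with Q3, and 7.25, 7.38 and 7.67 with siNeg set 2. It went the other way, with A3 minus A2 of -1.23 (SE 0.120, limma adjusted p = 1.45e-11). Of 27 heat shock genes 1 was called higher and 1 lower (7.41%), CRYAB at 0.41 and HSPA2 at -1.42, and without A2 replicate 3 the count was 1. HSPA2 was at 6.49, 6.58 and 6.63 with A3, 7.98, 8.17 and 7.82 with A2, 6.51, 6.76 and 6.54 with Q3, and 6.23, 6.04 and 6.28 with siNeg set 2. The A2 arrays were the highest and the siNeg set 2 arrays the lowest, with A3 and Q3 overlapping between them.

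Genes of oxidative stress defence gave 1 higher and 4 lower of 19 measured (26.3%, against 16.1% of all genes). AKR1C3, an aldo-keto reductase that acts on steroids, was at 9.07, 8.86 and 9.16 with A3, 10.56, 10.58 and 10.42 with A2, 10.40, 10.68 and 10.11 with Q3, and 8.79, 9.07 and 8.93 with siNeg set 2. A3 lay with the control and A2 with Q3, and A3 minus A2 was -1.49 (SE 0.118, limma adjusted p = 1.98e-14). AKR1C2 (-0.77) is nearly identical to AKR1C3 in sequence, and whether the probes tell them apart was not tested. HMOX1, which breaks down haem, was lower by 0.74 and NQO1 was 0.43 higher. Immediate early genes gave 2 higher and 6 lower of 35 (22.9%), with KLF6 at -0.88 and IER3 at -0.74 beside KLF2 and CCN2.

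The 2 siRNAs also differed in AGO2, the slicing Argonaute of RNA interference. AGO2 was at 8.60, 8.60 and 8.60 with A3, 9.37, 9.48 and 9.26 with A2, 9.20, 9.14 and 8.79 with Q3, and 8.94, 9.32 and 9.29 with siNeg set 2. A3 minus A2 was -0.77 (SE 0.107, limma adjusted p = 2.34e-07), and A3 was the lowest group. Of the 13 RNA interference genes, 1 was called higher and 1 lower (15.4%, against 16.1% of all genes), and 1 in all without A3 replicate 1, A3 replicate 2 or A2 replicate 3. Of 33 interferon response genes, 1 was called higher and 5 lower (18.2%), and 3 without A3 replicate 2. CXCL10, a chemokine, was detected on 1 A3 array (4.68, 5.51 and 4.60) and on 3 A2 arrays (5.98, 6.25 and 5.81), a difference in measured signal of -1.08. Limma called 0 of 10 sensors of double-stranded RNA, with 1 higher and 0 lower at an unadjusted p below 0.05, and 1 when the probes of a gene were averaged.

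Of 74 ribosomal protein genes 4 were called higher and 1 lower (6.76%, against 16.1% of all genes), and 3 in all without A2 replicate 1. RPL13A was at 12.91, 12.82 and 12.93 with A3, 11.72, 11.49 and 11.71 with A2, 12.92, 13.01 and 12.96 with Q3, and 12.999, 13.01 and 12.94 with siNeg set 2. The A2 arrays were the lowest of the 12, and A3 minus A2 was 1.25 (SE 0.0905, limma adjusted p = 7.82e-16). RPL37 was 1.38 higher with A3, above siNeg set 2 by 0.71 with A3 and below it by 0.68 with A2, while its other probe gave 0.10 (adjusted p = 0.825). Ribosomal protein genes have near-identical pseudogenes, so which transcripts these probes read is uncertain.

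Of 46 genes of G2/M and mitosis, 1 was called higher with A3 (CDC25B, 0.48) and 0 lower (2.17%, against 16.1% of all genes), with 2 higher and 4 lower at an unadjusted limma p below 0.05. Leaving out any one A3 or A2 array gave a count of 2. Of 46 genes of DNA replication and G1/S, 2 were called higher and 4 lower (13%). That count was 2 without A3 replicate 3, and 3 without A2 replicate 2 or without A2 replicate 3. RPA1, which coats single-stranded DNA, was 0.41 higher with A3 (limma adjusted p = 0.00142), while its other probes gave 0.15 and 0.17 and were not called. BCL2, the inhibitor of apoptosis, was 0.75 higher with A3 than with A2 (limma adjusted p = 1.41e-05), with means of 7.35 ± 0.075 and 6.60 ± 0.11 (SD, n = 3 each). Of its other probes 1 gave 0.74 and was called, and 1 gave 0.19 and was not.

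The fusion partners themselves were not called. EWSR1 differed by 0.03 (limma adjusted p = 0.915) and FLI1 by -0.29 (limma adjusted p = 0.257), and FLI1 was detected on 1 A3 array and 2 A2 arrays. Without A3 replicate 3 the FLI1 difference was -0.56 (adjusted p = 0.0132). Of 40 genes listed as activated by EWS-FLI1, 0 were called higher and 4 lower (10%, against 16.1% of all genes), and 2 without A3 replicate 2. The counts at an unadjusted limma p below 0.05 were 1 higher and 11 lower. The largest of these falls was that of LOX, at -0.54. Its call was lost in the authors' normalized values and with run 2 alone, among other settings. BCL11B had -0.40, a call lost without A3 replicate 2, and CCND1 had -0.29, lost without A3 replicate 3 or A2 replicate 3. How EWS-FLI1 acts on the listed genes was not tested here. MYC had -0.39, lost without A2 replicate 1, and its other probe gave 0.01. Of 34 genes listed as repressed, 8 were called higher and 12 lower (58.8%), and 13 in all without A2 replicate 2. DKK1, an inhibitor of Wnt signalling, was 0.66 higher with A3, and CDKN1A, which encodes the cell cycle inhibitor p21, was 0.46 higher, with 0.10 and no call for its other probe.

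Of 12 Ewing sarcoma markers 9 were measured. Limma called 0 of them between A3 and A2, against 16.1% of all genes, with 0 higher and 3 lower at an unadjusted p below 0.05. Markers of other cell types were mostly not measured. Of the lists, 1 of 10 cytotoxic lymphocyte genes, 1 of 7 other blood cell genes, 3 of 6 epithelial genes, 1 of 4 endothelial genes and 0 of 5 skeletal muscle genes passed the detection filter. Limma called 0 of these 6 measured genes, with 0 at an unadjusted p below 0.05. With so few genes measured, a count of 0 is no result about cell types.

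**Figure D5:**
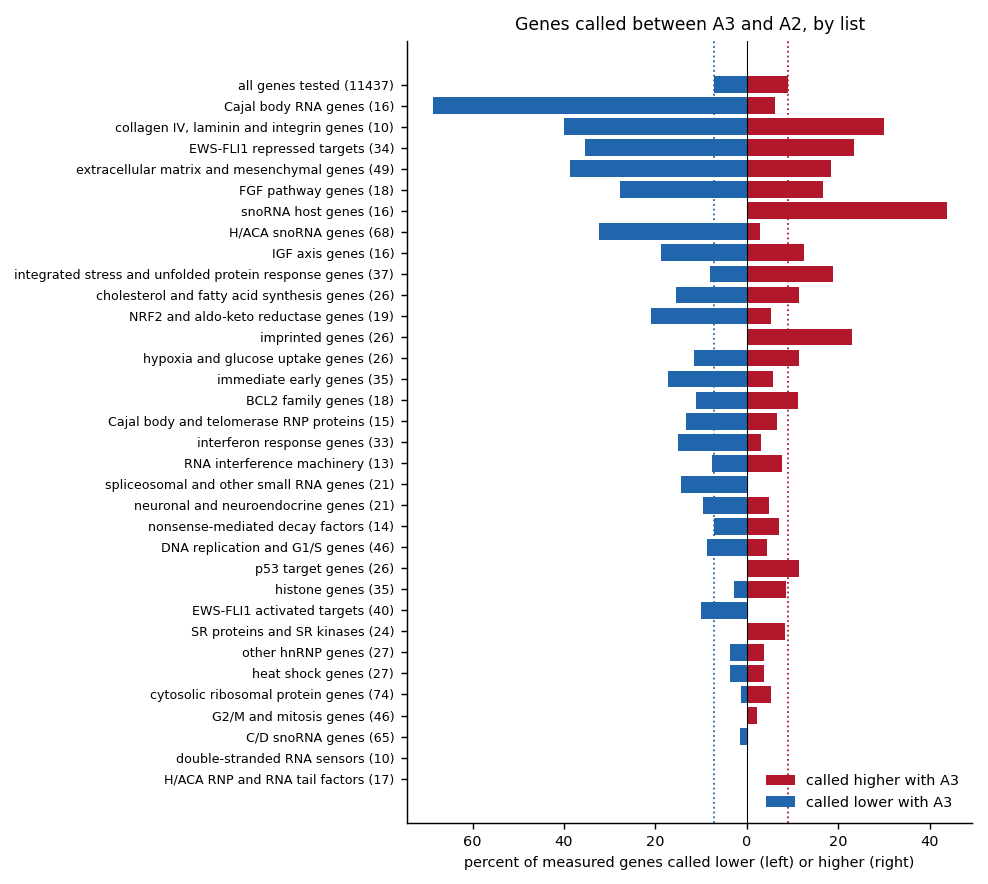
Percent of the measured genes of each list called lower (left, blue) or higher (right, red) with A3 than with A2, for lists with at least 10 measured genes (number in brackets), with dotted lines at the share over all genes tested (7.17% lower and 8.97% higher). Cajal body RNA genes have the longest bar on the lower side and snoRNA host genes the longest on the higher side, while C/D snoRNA, G2/M and ribosomal protein genes have 1, 1 and 5 genes called.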

How the data were processed

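Intensities and detection p-values were deposited by the authors as one table of average bead signals without normalization (47323 probes), per the file headers. A second deposited table held log2 values of 47231 probes that the authors had normalized, with GenomeStudio, R 3.0.2 and lumi named in the submitters' processing notes; the method is not given in the sources used here. Here the intensities of all 36 arrays were background-corrected and quantile-normalized with neqc (limma 3.58.1, R 4.3.3). Probes with a detection p below 0.01 on at least 3 of 36 arrays were kept (19738). Gene symbols came from the platform annotation (30113 probes with 1 symbol, 8 with several, 17202 with none), and the brightest kept probe stood for a gene, which left 11437 genes. One limma fit with 12 groups (24 residual degrees of freedom, intensity trend, two-sided) gave all contrasts.

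Genes are named by rule. These were the top 15 in each direction by log2 difference of A3 minus A2, if called, free of overlap between A3 and A2 arrays and detected on all arrays of the brighter group, genes fixed by name, the 6 largest shared rises and falls of the 3 siRNAs, and up to 4 members of a list, with further members given where they complete a group. Placeholder names were passed over. The members and lists were chosen with earlier results of these data known. Data of this size were simulated with 200 of 11437 genes changed. There, 54% of changes of 0.5 and 94% of changes of 1 on the log2 scale were recovered, with 8 false calls. Fewer genes were changed there than the 1846 called here, so these rates need not hold for the real data. The number of arrays limits the precision. siRNA and probe sequences were not used here.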

Additional observations from a re-analysis of the deposited data

How the results depend on the processing

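The count of genes called between A3 and A2 (1846) lay between 1321 and 1960 under 17 alternatives, and 0 genes were called in the opposite direction under any of them. The lowest count came from treating all siNeg arrays as 1 group, an alternative chosen after seeing the data. Leaving out 1 array gave 1434 to 1578. Counts against siNeg set 2 were 3908 to 4567 for A3, 4014 to 4703 for A2 and 4256 to 4869 for Q3. The replicate numbers did not pair the samples (same-number correlations of -0.020, -0.014 and 0.011), and the replicate block gave 1508 called genes, of which 1483 were among the 1846. Of 510 values of the 30 named rises and falls under alternatives, 509 kept direction and call. These genes were chosen as the largest called differences, and the alternatives reuse the same arrays, so the count is no separate support.

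Sizes were smaller in the authors' normalized values and without background correction; the cause was not tested for the authors' values, whose method is not known here. Genes at 2-fold or more (123) numbered 22 in the authors' normalized values and 26 without background correction, and 110 to 143 when 1 array was left out. The median of Cajal body RNA genes (-1.51) was -0.603 in the authors' values, -0.699 without background correction, -1.76 with run 2 alone, -0.505 with no filter on dim probes and -1.87 with a stricter one, and -1.61 to -1.32 when 1 array was left out. The median of H/ACA snoRNA genes (-0.21) was -0.0783 in the authors' values, -0.0930 without background correction, -0.121 with no filter and -0.355 with a stricter one, and -0.245 to -0.200 when 1 array was left out. That of matrix genes (-0.27) was -0.130 in the authors' values, -0.159 without background correction and -0.139 with no filter, and -0.285 to -0.209 when 1 array was left out. Directions turned for TNFRSF4 (0.0619 with no filter, another probe), SNU13 (-0.0303 with probes averaged), and the medians of C/D snoRNA genes (0.00241) and of neuronal and neuroendocrine genes (0.0354), both with no filter; the cause of the last 3 was not tested. In all 14 of 31 list medians changed sign under at least 1 alternative, most of them near 0. Leaving out 1 array gave -0.0198 to 0.113 for imprinted, -0.00482 to 0.105 for IGF axis, -0.0332 to 0.0677 for immediate early, -0.114 to 0.0244 for G2/M and -0.0549 to 0.0684 for BCL2 family genes. Background noise limits the size of differences near the detection limit.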

Other observations

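Of 4527 kept probes without a gene symbol, 306 were called between A3 and A2, against 2334 of all 19738 kept probes. Of the 306, 185 were higher with A3 and 121 lower, and 11 differed by 2-fold or more. The probe ILMN_3233442 averaged 8.95 ± 0.29 with A3, 7.14 ± 0.19 with A2 (SD, n = 3 each) and 8.88 with siNeg set 2, a log2 difference of A3 minus A2 of 1.81 (limma adjusted p = 2.77e-17). ILMN_1725791 averaged 8.56 ± 0.22 with A3, 9.84 ± 0.17 with A2 and 9.11 with siNeg set 2, a difference of -1.28.

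The H2A histone genes H2AC18 and H2AC19, which are nearly identical in sequence, were higher with A3 than with A2 by 0.78 and 0.68, while a second H2AC18 probe gave 0.55 and was not called. SRSF8, a splicing factor, was 0.58 higher with A3, and PTBP3, a relative of the splicing repressor PTBP1, was lower by 0.53, with -0.24 and no call for its other probe. ELOVL6 and TM7SF2, enzymes of fatty acid and sterol synthesis, were 0.99 and 0.82 higher.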
